A study of Homo sapiens with 13 samples.

Results

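A set of 33 genes of the cellular response to low oxygen and of glycolysis was followed in LNCaP-abl cells, a human prostate cancer line. The cells had received small interfering RNA (siRNA) against 12 targets, called knockdowns here by label. The members were the rows of the deposited expression files that carry the 33 chosen gene symbols, out of 22613 gene entries. By role, 3 belong to oxygen sensing, 12 are targets of the hypoxia response, 11 act in glucose uptake and upper glycolysis, and 7 act in lower glycolysis and lactate formation. All 33 were found, and 32 of them were among the 15785 genes kept at a mean of at least 0.5 FPKM (sequenced fragments per kilobase of transcript and per unit of mapped fragments) over the 13 libraries. CA9 was below that mean. Of 384 member differences from the single control library, 49 were at least 1.5-fold lower and 15 at least 1.5-fold higher. Of the differences of all kept genes, 6.22% were lower and 4.83% higher at that fold. These counts rest on the 1 control library. The clearest low value was LDHA, the main lactate dehydrogenase subunit, which was at 48.6 FPKM in the siEZH2 library, against 306.5 FPKM in the siControl2 library. The siBRCA2 library held the highest value of most members, though BRCA2 itself was only at rank 9 from the lowest of the 13 there.

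LNCaP-abl is an androgen-independent derivative of the LNCaP line, obtained by long growth without androgen. All cells came from this single line at passages 53 to 60, in medium with charcoal-stripped serum, which is poor in steroid hormones. They received siRNA pools by lipid transfection, and RNA was taken 72 h later. The 12 knockdown libraries are called after their siRNA, siBRCA1, siBRCA2, siCTCF, siEED, siEZH2, siFOXA1, siFOXM1, siKDM1A, siMALAT1, siPCAT1, siRAD21 and siSMARCA4, and the control library, made with control siRNA, is called siControl2. Each group had 1 library, so differences carry no replicate error, no test was possible and no p-value is given. The labels do not state the oxygen level of the culture. The series states as its purpose the modelling of gene regulation in cis.

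Cells sense oxygen through prolyl hydroxylases, which mark the alpha subunits of hypoxia-inducible factors for destruction by the VHL ubiquitin ligase when oxygen is plentiful. In low oxygen the alpha subunit HIF1A accumulates mainly as protein, pairs with ARNT and binds DNA at sites with the core ACGTG or GCGTG, next to genes for glucose uptake, glycolysis, blood vessel growth and the removal of mitochondria. Glycolysis turns glucose to pyruvate, and lactate dehydrogenase turns pyruvate to lactate. Tumour cells often run this route in the presence of oxygen, whereas prostate cells are known for an unusual metabolism in which citrate is secreted. RNA levels say nothing of the amount of HIF1A protein or of the flux through the pathway.

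The upstream DNA of 3 members is shown because LDHA and PGAM1 had the most similar profiles over the libraries and BNIP3 is a hypoxia target close to LDHA in profile. The sequences are from RefSeq on GRCh38.p14, 5′ to 3′ on the gene's own strand, and give the 250 bases before the start. Capitals mark ACGTG or its reverse complement CACGT, and CACGTG where both strands match at overlapping places. The LDHA stretch lies at chr11:18394313-18394562 (+ strand), the PGAM1 stretch at chr10:97427568-97427817 (+ strand) and the BNIP3 stretch at chr10:131981924-131982173 (- strand).
LDHA: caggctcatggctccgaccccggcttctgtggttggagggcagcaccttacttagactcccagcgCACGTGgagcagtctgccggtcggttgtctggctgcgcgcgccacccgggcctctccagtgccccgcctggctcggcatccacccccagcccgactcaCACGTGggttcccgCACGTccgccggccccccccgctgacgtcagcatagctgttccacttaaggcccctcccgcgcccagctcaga
PGAM1: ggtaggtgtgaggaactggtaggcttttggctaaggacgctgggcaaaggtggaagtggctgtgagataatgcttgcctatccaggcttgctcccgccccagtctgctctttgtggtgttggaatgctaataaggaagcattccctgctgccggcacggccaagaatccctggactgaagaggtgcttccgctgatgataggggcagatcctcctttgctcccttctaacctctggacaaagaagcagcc
BNIP3: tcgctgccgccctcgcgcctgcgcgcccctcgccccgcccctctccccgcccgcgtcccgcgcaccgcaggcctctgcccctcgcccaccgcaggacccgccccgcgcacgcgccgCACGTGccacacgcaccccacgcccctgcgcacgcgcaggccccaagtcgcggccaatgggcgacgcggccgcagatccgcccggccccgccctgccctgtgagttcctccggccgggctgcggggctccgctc

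LDHA held the motif at 3 places, with first bases at -185, -87 and -73 from the start, and 2 of them read CACGTG. BNIP3 held 1, a CACGTG at -134, and the PGAM1 stretch held none. RefSeq promoters (250 bases before to 50 after the start) were matched by symbol for 29 of the 33 members, in 49 entries, since some genes have several starts. None was matched for VEGFA, BNIP3L, NDRG1 and NDUFA4L2. ACGTG on either strand stood in at least 1 entry of 17 of the 29 members, or 58.6%, against 32.3% of the 9509 kept genes with a promoter and 24.9% of all 27305 genes with one. Counted by entry, it stood in 20 of 49 member entries (40.8%), against 25.2% of 13792 entries of kept genes. GCGTG stood in 19 of 29 members (65.5%), against 58.1% of kept genes. Over these windows the BNIP3 entry held 4 matches of GCGTG, the LDHA entry shown 1 and the PGAM1 entry 0, and capitals do not mark them. A second LDHA entry, not shown, held 0 places of ACGTG and 1 match of GCGTG. A match is a string of letters and not a binding site, and the windows leave out distant elements.

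The cell line was checked against fixed markers. KRT8 was at 84.2 to 223 FPKM and KRT18 at 90.6 to 179, as luminal prostate epithelium has them, while KLK3, the androgen-induced gene for prostate-specific antigen, was at only 0.0165 to 0.524 FPKM and KLK2 at 0.130 to 1.70. Of genes that mark other cells, COL1A1 (fibroblasts) was at 0.421 to 1.80 FPKM, PTPRC (immune cells) at up to 3.14, CD68 (macrophages) at 4.07 to 11.1 and PECAM1 (endothelium) at 0.637 to 1.01. Of 11 siRNA targets checked, 8 were lowest of the 13 libraries in their own library. BRCA1 took rank 3 from the lowest in siBRCA1, and BRCA2 rank 9 in siBRCA2, at 1.23 FPKM, against 3.25 FPKM in siControl2. The library labelled siMALAT1 held 21.7 FPKM of MALAT1, against 16.4 FPKM in siControl2, which goes against that label. PCAT1 was not analysed here, so the label siPCAT1 has no check. Read depth is unknown, and the deposited values had been brought to a common distribution. All 12 comparisons share the 1 control library. Proliferation genes were lower in the knockdowns, with median log2 differences over 10 genes from -0.29 (siEED) to -3.25 (siFOXM1), and their part in the members' differences was not tested.

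Differences are knockdown minus siControl2 on the log2(FPKM + 1) scale, where 1 is 2-fold. Of 384 member differences (32 members in 12 knockdowns), 13 were at least 2-fold lower, or from 6 members, while 2.04% of the differences of all kept genes were. None was at least 2-fold higher, while 1.10% of all were. At 1.5-fold, 49 member differences from 18 members were lower (6.22% of all) and 15 from 9 members were higher (4.83% of all). The 6 members past 2-fold were LDHA, PFKP, HIF1A, PDK1, ALDOA and BNIP3. Of these, all but HIF1A held ACGTG in at least 1 RefSeq promoter entry. So did 17 of the 29 members with a promoter and 32.3% of kept genes with one. The 16 kept members with ACGTG had a lower median difference than the 12 without in every knockdown but siEED, siBRCA1 and siBRCA2. The gap was not tested. The same split was not made over all kept genes, so these medians cannot show whether the gap is particular to the members. In siSMARCA4 the median difference was -0.51 with the motif and -0.19 without, and in siEZH2 -0.51 with and -0.23 without. In siEED it was -0.17 with and -0.17 without, in siBRCA1 -0.083 with and -0.14 without, and in siBRCA2 0.20 with and 0.15 without.

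**Figure D1:**
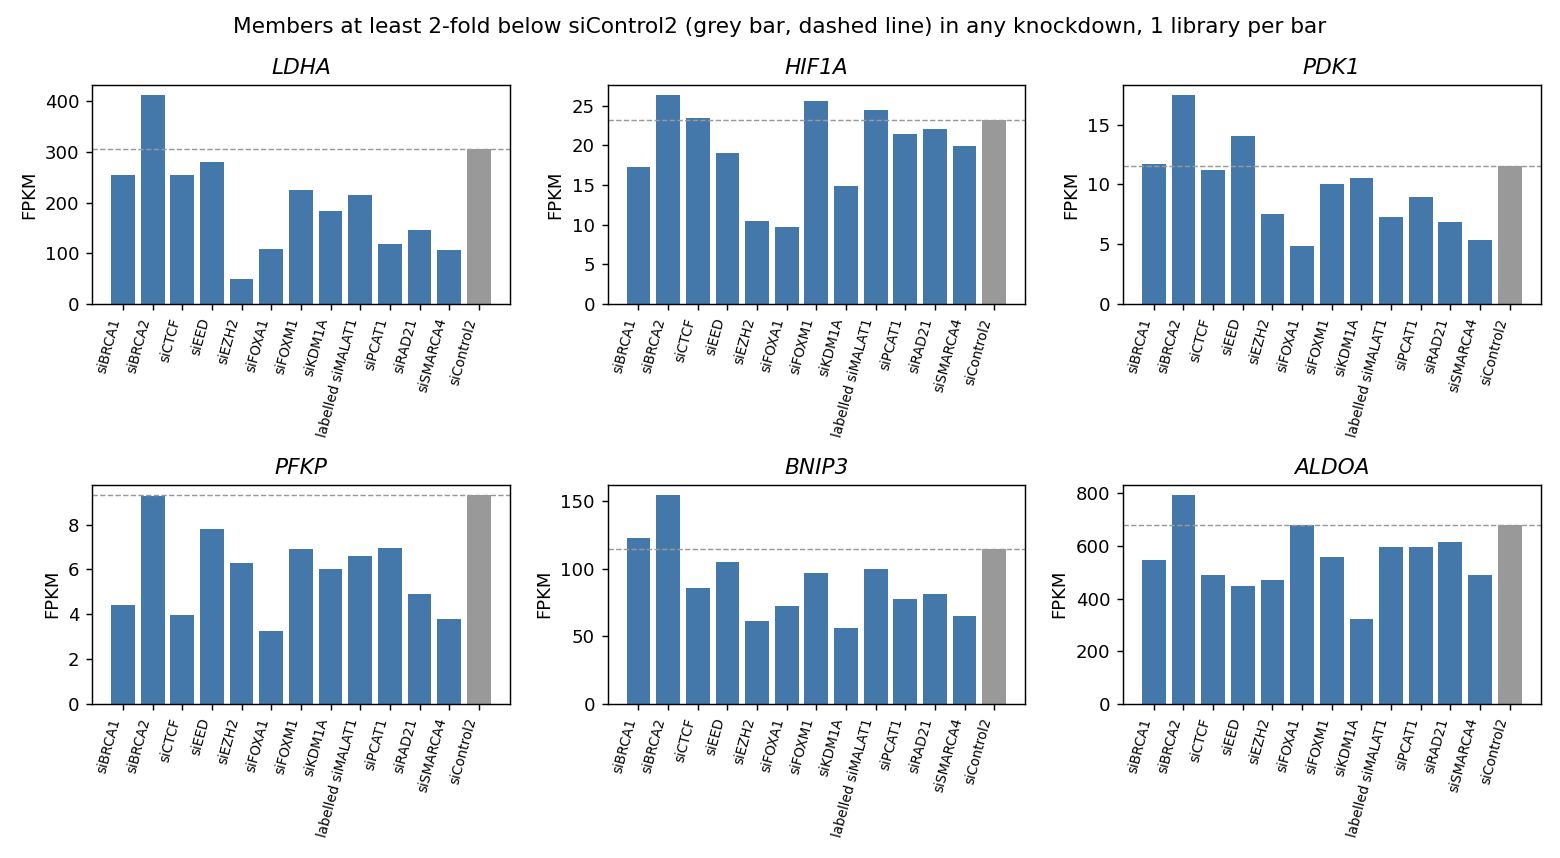
FPKM (y axis, from 0) of the 6 members at least 2-fold below siControl2 in any knockdown, with 1 panel per gene and 1 bar per library. Blue bars are the 12 knockdowns, and the grey bar and dashed line are siControl2. LDHA lies below the line in all knockdowns but siBRCA2, with its lowest bar, 48.6 FPKM, in siEZH2, and no PFKP bar passes the line.

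HIF1A, the oxygen-regulated subunit, was lowest in siFOXA1 and siEZH2. It was at 17.2 FPKM in siBRCA1, 26.3 in siBRCA2, 23.4 in siCTCF, 19.1 in siEED, 10.5 in siEZH2, 9.71 in siFOXA1, 25.6 in siFOXM1, 14.9 in siKDM1A, 24.4 in the library labelled siMALAT1, 21.5 in siPCAT1, 22.0 in siRAD21 and 20.0 in siSMARCA4, against 23.1 in siControl2. The siFOXA1 and siEZH2 values lay near each other and below the other 11 libraries. The differences were -1.17 in siFOXA1 and -1.08 in siEZH2, and siKDM1A followed with -0.61. The entry HIF1A-AS2, an antisense RNA of the HIF1A locus, was also lowest in these libraries, at 5.88 FPKM in siEZH2 and 6.84 in siFOXA1, against 11.9 FPKM in siControl2. No label states whether reads were assigned by strand, so reads of HIF1A and of its antisense RNA cannot be told apart.

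EGLN1, the main prolyl hydroxylase that marks HIF1A, varied little. It was at 8.19 FPKM in siBRCA1, 8.55 in siBRCA2, 8.57 in siCTCF, 8.04 in siEED, 5.04 in siEZH2, 6.40 in siFOXA1, 7.70 in siFOXM1, 7.35 in siKDM1A, 8.73 in the library labelled siMALAT1, 6.03 in siPCAT1, 8.04 in siRAD21 and 6.89 in siSMARCA4, against 7.57 in siControl2. Its lowest value was in siEZH2 (-0.50), and the other knockdowns lay on both sides of the control. EGLN3, a prolyl hydroxylase that is itself induced by hypoxia, was higher in 11 of 12 knockdowns. It was at 9.47 FPKM in siBRCA1, 13.8 in siBRCA2, 18.5 in siCTCF, 15.5 in siEED, 13.4 in siEZH2, 14.9 in siFOXA1, 13.1 in siFOXM1, 11.7 in siKDM1A, 9.12 in the library labelled siMALAT1, 10.5 in siPCAT1, 13.7 in siRAD21 and 11.3 in siSMARCA4, against 9.46 in siControl2. The siCTCF library was highest (0.90), and siBRCA1, the library labelled siMALAT1 and the control lay together at the low end.

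Among the hypoxia targets, BNIP3, a mitochondrial receptor for mitophagy, was lowest in siKDM1A. It was at 123 FPKM in siBRCA1, 155 in siBRCA2, 85.7 in siCTCF, 105 in siEED, 61.5 in siEZH2, 72.5 in siFOXA1, 96.7 in siFOXM1, 56.3 in siKDM1A, 100.1 in the library labelled siMALAT1, 77.5 in siPCAT1, 81.2 in siRAD21 and 64.7 in siSMARCA4, against 115 in siControl2. Only siBRCA1 and siBRCA2 lay above the control, and the siKDM1A difference was -1.02, with -0.89 in siEZH2 and -0.82 in siSMARCA4. BNIP3 has 39 pseudogenes that bear its name in the GENCODE annotation, none of which is an entry in the files, so its values may hold reads shared with copies. Its relative BNIP3L ranged from 30.1 FPKM in siCTCF (-0.64) to 54.1 in siBRCA2, against 47.5 in siControl2.

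PDK1, a kinase that switches off pyruvate dehydrogenase and so keeps pyruvate out of the citrate cycle, was lowest in siFOXA1 and siSMARCA4. It was at 11.7 FPKM in siBRCA1, 17.4 in siBRCA2, 11.2 in siCTCF, 14.0 in siEED, 7.56 in siEZH2, 4.88 in siFOXA1, 10.0 in siFOXM1, 10.5 in siKDM1A, 7.29 in the library labelled siMALAT1, 8.94 in siPCAT1, 6.84 in siRAD21 and 5.31 in siSMARCA4, against 11.5 in siControl2. The differences were -1.09 in siFOXA1 and -0.99 in siSMARCA4, while siBRCA2 stood highest of the 13 (0.56).

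KDM3A, an oxygen-dependent histone demethylase, was the only member whose control value lay below all 12 knockdowns, as it did for 4.76% of all kept genes. It was at 15.8 (siSMARCA4) to 30.1 FPKM (siFOXM1) in the knockdowns, against 15.6 FPKM in siControl2. P4HA1, a subunit of the collagen prolyl hydroxylase, was at 63.2 FPKM in siFOXA1 (0.70), above every other library, and at 25.1 in siEZH2 and 24.2 in siKDM1A, against 38.6 FPKM in siControl2. NDRG1, a stress-responsive gene, spanned a wide range, with 50.6 FPKM in siBRCA2, 49.1 in siFOXM1 and 45.2 in siEED at the top and 15.2 in siEZH2 and 16.0 in siRAD21 at the bottom, against 25.8 in siControl2.

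VEGFA, the growth factor of blood vessels, was at 35.4 FPKM in siBRCA2 (0.73), 31.1 in siFOXM1 and 30.0 in siEED, against 20.9 FPKM in siControl2, and its lowest value was 17.9 in siSMARCA4. ANKRD37, an ankyrin-repeat gene induced by hypoxia, was higher in all knockdowns but siSMARCA4, and spanned 2.52 (siSMARCA4) to 6.10 FPKM (siBRCA2), against 3.65 FPKM in siControl2. MXI1, an antagonist of MYC, was lowest in siFOXA1 at 14.7 FPKM, against 24.8 FPKM in siControl2. The remaining targets were low throughout. The vasodilator peptide gene ADM was at 0.716 to 1.83 FPKM, against 1.18 in siControl2. The mitochondrial gene NDUFA4L2 was at 0.375 to 1.06 FPKM, against 0.855 in siControl2. CA9, a membrane carbonic anhydrase much used as a hypoxia marker, was at 1.75 FPKM in siBRCA2 and at 0.0130 to 0.759 in the other knockdowns, against 0.742 FPKM in siControl2.

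Among the 11 genes of glucose uptake and upper glycolysis, the median difference ran from -0.47 in siSMARCA4 to 0.19 in siBRCA2. SLC2A1, the glucose transporter, was at 8.02 (siRAD21) to 14.2 FPKM (siBRCA2), against 9.13 FPKM in siControl2. HK1, the widely expressed hexokinase, was at 33.1 (siRAD21) to 52.5 FPKM (siFOXM1), against 39.1 FPKM in siControl2. HK2, the hypoxia-inducible hexokinase, was at 6.93 FPKM in siCTCF (0.86) and 6.10 in siBRCA2 (0.71) but at 1.41 in siSMARCA4 (-0.85), against 3.36 FPKM in siControl2. GPI, which converts glucose phosphate to fructose phosphate, was at 85.6 (siSMARCA4) to 129 FPKM (siBRCA2), against 123 FPKM in siControl2.

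The phosphofructokinase subunits PFKL and PFKP, which make the enzyme of the committed step, were the only members with the control above all 12 knockdowns, as held for 5.28% of all kept genes. PFKL was at 40.7 (siSMARCA4) to 63.5 FPKM (siFOXA1), against 73.8 FPKM in siControl2. PFKP was at 4.41 FPKM in siBRCA1, 9.28 in siBRCA2, 3.95 in siCTCF, 7.81 in siEED, 6.27 in siEZH2, 3.24 in siFOXA1, 6.92 in siFOXM1, 6.005 in siKDM1A, 6.599 in the library labelled siMALAT1, 6.97 in siPCAT1, 4.89 in siRAD21 and 3.78 in siSMARCA4, against 9.32 in siControl2. The siBRCA2 value all but equalled the control (-0.0056), while siFOXA1 (-1.28), siSMARCA4 (-1.11) and siCTCF (-1.06) lay at the low end. PFKFB3, a kinase that makes the activator of phosphofructokinase, was at 4.85 FPKM in siBRCA2 (0.90) and 1.02 in siEZH2 (-0.63), against 2.13 FPKM in siControl2. Its relative PFKFB4 was at 2.10 (siSMARCA4) to 3.66 FPKM (siBRCA2), against 2.52 FPKM in siControl2.

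ALDOA, the main aldolase, was lowest in siKDM1A. It was at 545 FPKM in siBRCA1, 794 in siBRCA2, 490.0 in siCTCF, 447 in siEED, 470.0 in siEZH2, 679.9 in siFOXA1, 557 in siFOXM1, 321 in siKDM1A, 595 in the library labelled siMALAT1, 595 in siPCAT1, 615 in siRAD21 and 490.0 in siSMARCA4, against 679.9 in siControl2. The siKDM1A difference was -1.08 and its value lay below all other libraries. Identical values in several libraries come from the common distribution, in which abundant genes take their value by rank. ALDOC, a second aldolase, was lowest in siKDM1A as well, at 25.7 FPKM (-0.84), against 46.8 FPKM in siControl2. TPI1, which interconverts the 3-carbon products of aldolase, was at 410.0 (siKDM1A) to 666 FPKM (siBRCA2), against 585 FPKM in siControl2.

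In lower glycolysis, all 7 members were lower than the control in 8 of the 12 knockdowns, and none was lower in siBRCA2. Those 8 were all but siBRCA2, siCTCF, siEED and the library labelled siMALAT1. Of all kept genes, 43.3% (siEZH2) to 49.2% (siEED) were lower than the control in a knockdown. GAPDH, the dehydrogenase often used as a reference gene, was at 1266 (siEZH2, -0.86) to 2622 FPKM (siBRCA2), against 2307 FPKM in siControl2, and was at least 1.5-fold lower in siEZH2, siKDM1A and siFOXA1. GAPDH has 62 pseudogenes that bear its name, more than any other member, and its values may hold reads shared with them. PGK1, a kinase that yields ATP, was at 149 (siSMARCA4) to 266 FPKM (siBRCA2), against 213 FPKM in siControl2. ENO1, the main enolase, was at 270.3 (siSMARCA4, -0.74) to 490.0 FPKM (siBRCA2), against 452 FPKM in siControl2. PKM, pyruvate kinase, was at 314 (siFOXA1) to 498 FPKM (siBRCA2), against 470.0 FPKM in siControl2. LDHB, the second lactate dehydrogenase subunit, was at 1.93 (siFOXM1, -0.94) to 5.08 FPKM (siBRCA2), against 4.61 FPKM in siControl2, and was at least 1.5-fold lower in 7 knockdowns.

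LDHA had the widest spread of the kept members, with an 8.45-fold ratio between its highest and lowest library. It was at 255 FPKM in siBRCA1, 411 in siBRCA2, 254 in siCTCF, 279.6 in siEED, 48.6 in siEZH2, 108 in siFOXA1, 225 in siFOXM1, 183 in siKDM1A, 214 in the library labelled siMALAT1, 119 in siPCAT1, 145 in siRAD21 and 107 in siSMARCA4, against 306.5 in siControl2. The siBRCA2 library alone lay above the control, and siFOXA1, siSMARCA4 and siPCAT1 lay close together above siEZH2. The differences were -2.63 in siEZH2, -1.51 in siSMARCA4, -1.49 in siFOXA1, -1.36 in siPCAT1 and -1.07 in siRAD21. As a ratio of FPKM, siEZH2 held 0.159 and siSMARCA4 0.349 of the siControl2 level. In siEZH2, LDHA lay 1.12 log2 units below the next lowest library, the only member at least 1.5-fold below or above all other 12. Such a gap below was seen for 3.77% of all kept genes in any library and for 0.462% in siEZH2, and a gap above, which no member had, for 3.45% in any library. EED is a partner of EZH2 in the Polycomb complex PRC2, and LDHA was at 279.6 FPKM in siEED (-0.13). The difference of EZH2 was -2.44 in its own library, and that of EED -0.95 in its own. The RNA of the targets was thus not lowered alike, and the cause of the LDHA values was not tested.

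PGAM1, the phosphoglycerate mutase next to ENO1 in the pathway, was lowest in siEZH2 at 149.6 FPKM (-0.66) and highest in siBRCA2 at 289 FPKM, against 237 FPKM in siControl2. Over the 13 libraries, LDHA and PGAM1 had a Pearson's r of 0.94 on the log2(FPKM + 1) scale, the highest of 496 pairs of members. Without siEZH2 the value was 0.89 over 12 libraries, and 0.87 over 11 without siEZH2 and siSMARCA4, the libraries farthest from the median of LDHA. The libraries share a cell line and a common distribution, and the values are descriptions. The upstream stretch of LDHA shown above holds 3 ACGTG places and that of PGAM1 none.

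**Figure D2:**
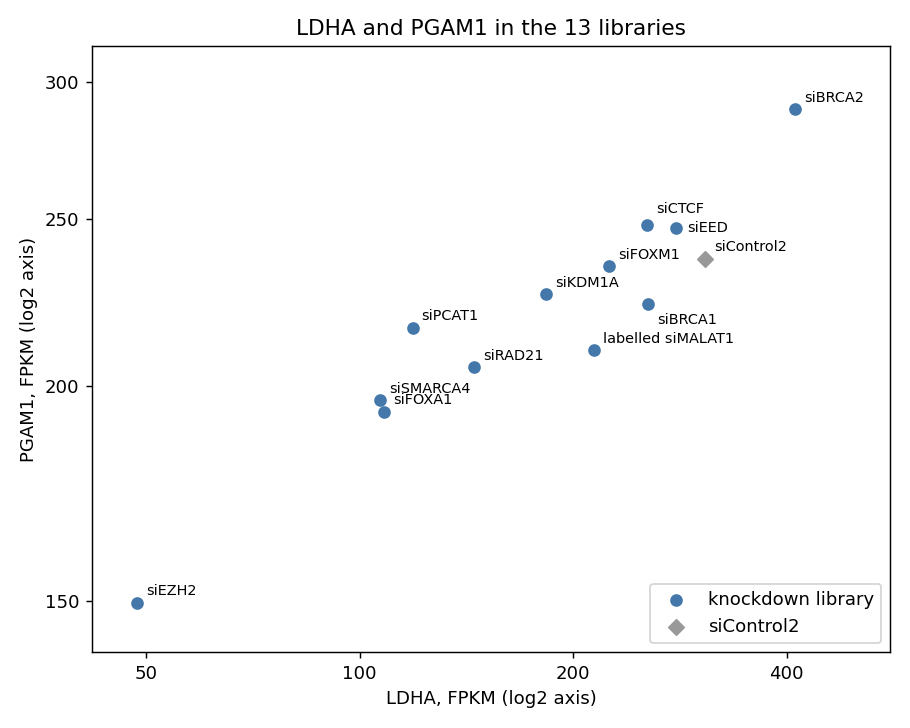
LDHA (x axis) and PGAM1 (y axis), both in FPKM on log axes that do not start at 0, with 1 point per library, blue for the 12 knockdowns and a grey diamond for siControl2. The siEZH2 point is lowest on both axes and the siBRCA2 point highest on both.

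Of the 496 pairs, 12 had r of at least 0.8, 94 were below 0, and the median was 0.33. EGLN1 followed LDHA with r = 0.88, and with 0.76 once siEZH2 was left out. GPI was most like ENO1 (0.85), BNIP3 most like TPI1 (0.84, and 0.80 with LDHA), and VEGFA and PDK1 each most like HK2 (0.84 and 0.83). HIF1A was most like PKM, with r = 0.74, and was not the closest match of any hypoxia target. HK1 and P4HA1 ran most against each other, at -0.61.

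Shares within enzyme families do not depend on the control, but setting them against siControl2 does. HK2 made up 3.46% (siSMARCA4) to 13.3% (siCTCF) of hexokinase FPKM in the knockdowns, against 7.91% in siControl2. PFKL was 35.8% (siKDM1A) to 56.0% (siFOXA1) of the phosphofructokinase sum, against 52.3% in siControl2. PFKM, the muscle-type subunit, was not a member but held 41.2% (siFOXA1) to 59.5% (siKDM1A), against 41.0% in siControl2, its lowest share. Its own level lay on both sides of the control, at 46.7 (siFOXA1) to 76.0 FPKM (siKDM1A), against 57.9 FPKM in siControl2. PFKL and PFKP had their highest FPKM in siControl2. PFKP was 2.86% (siFOXA1) to 7.42% (siBRCA2), against 6.61% in siControl2. LDHB never passed 3.89% of the lactate dehydrogenase sum, its value in siEZH2, against 1.48% in siControl2. ALDOC was 5.73% (siFOXA1) to 9.91% (siFOXM1) of aldolase, against 6.43% in siControl2. PFKFB3 was 5.21% (siEZH2) to 24.6% (siBRCA2) of the sum with PFKFB2 and PFKFB4, against 10.9% in siControl2.

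**Figure D3:**
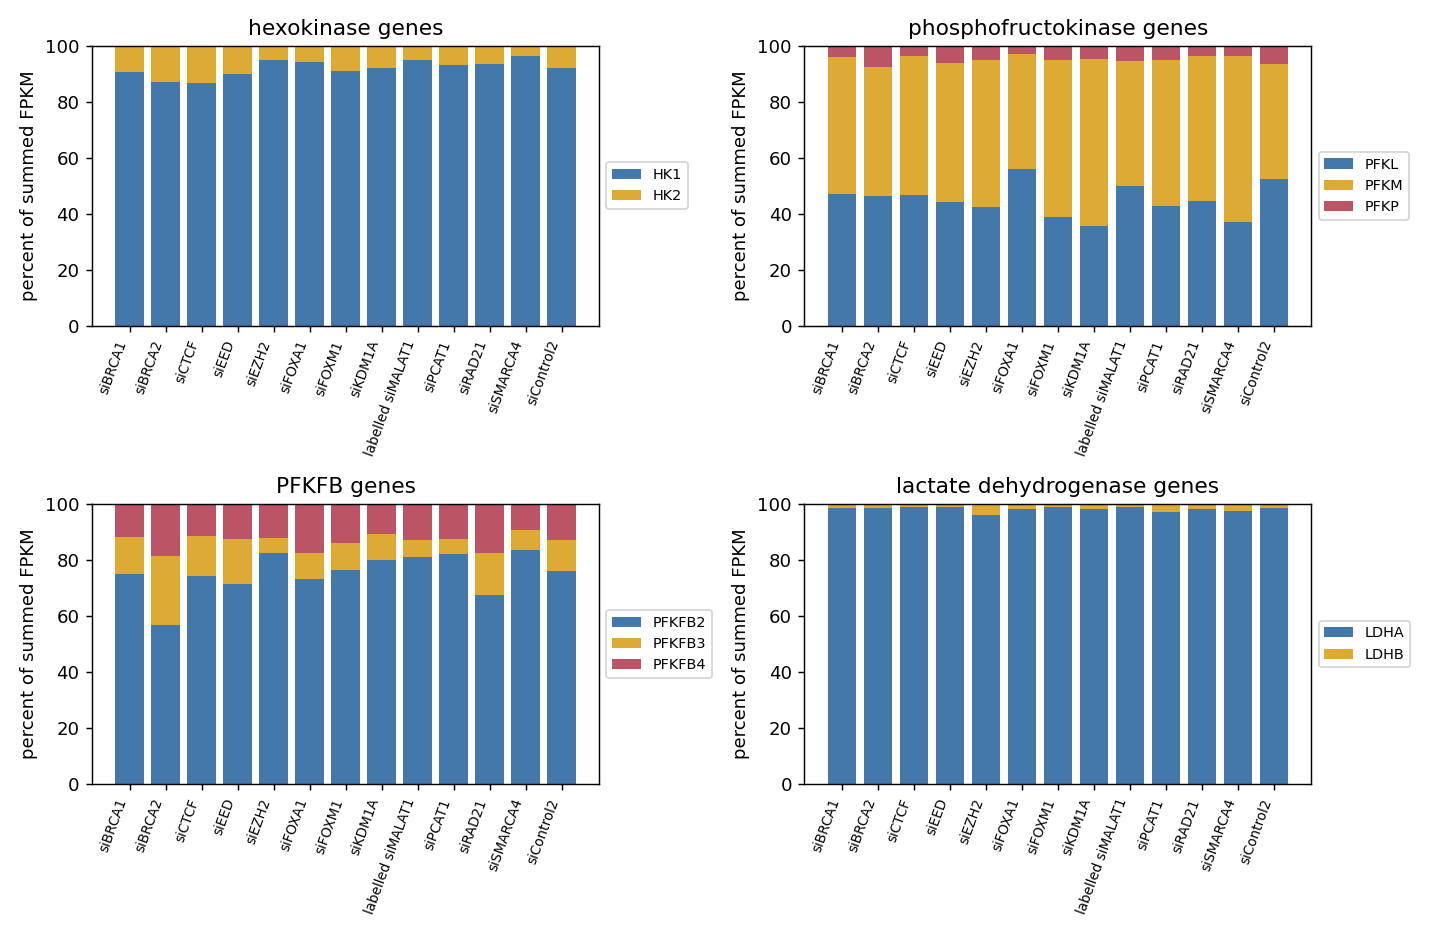
Percent of the summed FPKM of 4 enzyme families (hexokinase, phosphofructokinase, PFKFB and lactate dehydrogenase genes) held by each gene, with 1 stacked bar per library from 0 to 100% and siControl2 at the right. HK2 ran from 3.46% in siSMARCA4 to 13.3% in siCTCF of hexokinase, and LDHA was by far the larger share of lactate dehydrogenase in all libraries.

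The knockdowns were then taken in turn, with the share of all 15785 kept genes past the same fold given for scale. Among the 12, members at least 2-fold higher numbered 0 in each. Of all genes, at least 2-fold higher were 0.45% in siBRCA1, 0.767% in siBRCA2, 1.27% in siCTCF, 0.817% in siEED, 0.893% in siEZH2, 3.52% in siFOXA1, 2.59% in siFOXM1, 0.754% in siKDM1A, 0.386% in the library labelled siMALAT1, 0.323% in siPCAT1, 0.906% in siRAD21 and 0.494% in siSMARCA4. In siEZH2 the median of the 32 members was -0.45, against 0.054 over all genes, and 24 members were lower (43.3% of all genes). There 2 members were at least 2-fold lower (3.09% of all genes) and 9 at least 1.5-fold lower (7.33%). They were HIF1A, LDHA, BNIP3, P4HA1, NDRG1, PFKFB3, GAPDH, PGAM1 and LDHB. None was at least 1.5-fold higher (5.41%). Lower glycolysis had a median of -0.66, and the hypoxia targets -0.061.

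In siSMARCA4, the knockdown of a chromatin-remodelling ATPase, 28 of 32 members were lower (44.6% of all genes), with a median of -0.38, against 0.033 over all genes. LDHA and PFKP were at least 2-fold lower (2 members, 1.97% of all genes), and 9 were at least 1.5-fold lower (5.23%). Besides these, they were BNIP3, PDK1, HK2, PFKL, ALDOC, ENO1 and LDHB. None was at least 1.5-fold higher (3.34%). This library held the lowest value of the 13 for 8 members, as it did for 2.94% of all genes.

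In siFOXA1, the knockdown of a luminal pioneer factor, 24 members were lower (47.9% of all genes), with a median of -0.31, against 0.018 over all genes. LDHA, PFKP, HIF1A and PDK1 were at least 2-fold lower (4 members, 4.22% of all genes). At 1.5-fold 9 were lower (10.9%), the others being BNIP3, MXI1, GAPDH, ENO1 and LDHB. At the same fold 2 were higher (11.1%), P4HA1 and EGLN3. More genes were past 2-fold in siFOXA1 than in any other knockdown.

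In siKDM1A, the knockdown of a histone demethylase, 23 members were lower (49.0% of all genes), with a median of -0.17, against 0.0076 over all genes. ALDOA and BNIP3 were at least 2-fold lower (2 members, 1.55% of all genes), and 8 were at least 1.5-fold lower (6.72%). The others were HIF1A, P4HA1, PFKL, ALDOC, GAPDH and LDHA. None was at least 1.5-fold higher (4.82%). In siRAD21, the knockdown of a cohesin subunit, 25 members were lower (46.9% of all genes), with a median of -0.22, against 0.022 over all genes. LDHA was the 1 member at least 2-fold lower (1.88% of all genes), and 5 were at least 1.5-fold lower (6.16%), with PDK1, NDRG1, PFKP and LDHB. None was at least 1.5-fold higher (4.69%).

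The siBRCA2 library went the other way. Only 5 members were lower (48.5% of all genes), the median was 0.19, against 0.0097 over all genes, and 7 members were at least 1.5-fold higher (3.19% of all genes). They were NDRG1 (0.94), PFKFB3 (0.90), VEGFA (0.73), HK2 (0.71), ANKRD37, KDM3A and SLC2A1. None was at least 2-fold lower (0.76%) or 1.5-fold lower (4.04%). This library held the highest value of the 13 for 20 of the 32 members, as it did for 7.66% of all genes, and the 18 genes of glycolysis summed to 6360 FPKM in siBRCA2 and 3469 in siEZH2, against 5564 in siControl2. The siBRCA2 library also had 1819 entries listed at 0, as siFOXA1 had 1821 and siPCAT1 1803, against 1580 in siControl2, and the part of this in the members' values was not tested.

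In siCTCF, the knockdown of an insulator protein, PFKP was the 1 member at least 2-fold lower (2.84% of all genes), 3 were at least 1.5-fold lower (7.37%), with BNIP3L and LDHB, and 2 were at least 1.5-fold higher (5.76%), EGLN3 and HK2. In siFOXM1, the knockdown of a proliferation-linked factor, no member was at least 2-fold lower (3.6%), LDHB was the 1 at least 1.5-fold lower (9.07%), and KDM3A and NDRG1 were the 2 at least 1.5-fold higher (8.54%). In siEED no member was at least 2-fold lower (0.741%), ALDOA was the 1 at least 1.5-fold lower (4.11%), and NDRG1 and EGLN3 were the 2 at least 1.5-fold higher (3.47%). In siPCAT1, LDHA was the 1 member at least 2-fold lower (1.33%) and the 1 at least 1.5-fold lower (4.23%), and none was at least 1.5-fold higher (2.21%).

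In siBRCA1 no member was at least 2-fold lower (0.944% of all genes), PFKP was the 1 at least 1.5-fold lower (5.35%), and none was at least 1.5-fold higher (2.62%). In the library labelled siMALAT1 no member was at least 2-fold lower (1.56%), PDK1 and LDHB were the 2 at least 1.5-fold lower (4.19%), and none was at least 1.5-fold higher (2.74%). Of the 32 members, 24 were lower than the control in siPCAT1 (46.4% of all genes) and 21 in the library labelled siMALAT1 (47.4%). In siBRCA1 19 were lower (47.6%), in siEED 19 (49.2%), in siCTCF 18 (44.4%) and in siFOXM1 18 (47.7%). In these 6 libraries the members' medians lay between -0.17 (the library labelled siMALAT1) and -0.041 (siFOXM1), and all 6 were above 0, from 0.030 (siBRCA1) to 0.13 (siFOXM1), against the median of the other 11 knockdowns. Proliferation genes had a median of -3.25 in siFOXM1, -3.11 in siFOXA1, -2.98 in siEZH2, -2.50 in siCTCF and -2.02 in siSMARCA4. Their median was -1.49 in the library labelled siMALAT1, -1.49 in siPCAT1, -1.34 in siRAD21 and -1.02 in siKDM1A. In siBRCA1 it was -0.94, in siBRCA2 -0.35 and in siEED -0.29. Their part in the members' differences was not tested.

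**Figure D4:**
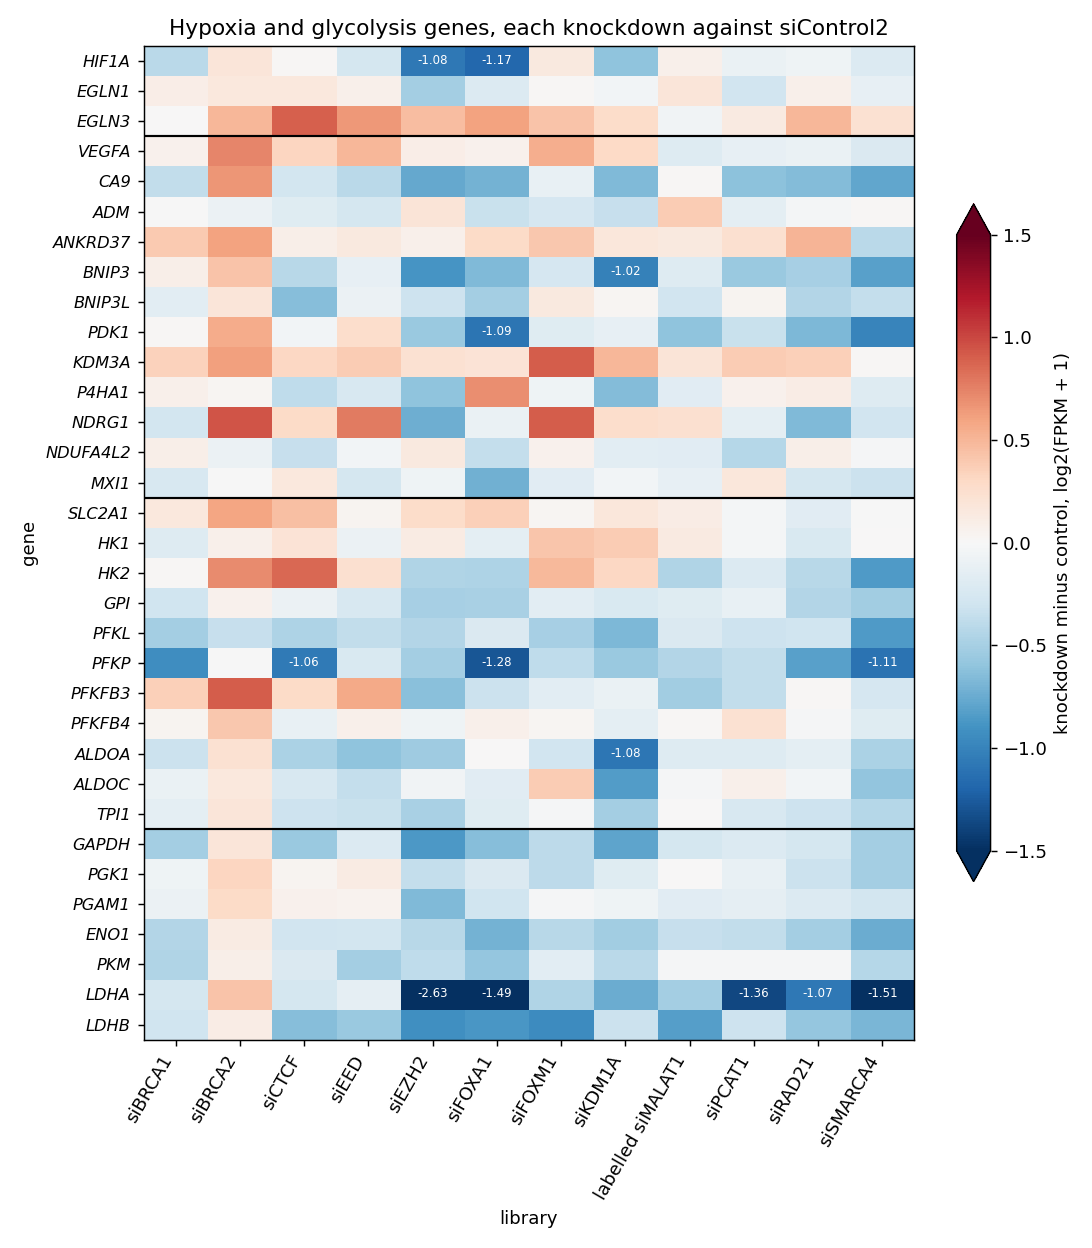
Difference (knockdown minus siControl2, log2(FPKM + 1)) of the 33 members (rows, with lines between the 4 roles) in each of the 12 knockdowns (columns), blue for lower and red for higher, with colours capped at 1.5 log2 units. Numbers mark the 13 differences at least 2-fold lower, of which LDHA in siEZH2 is the lowest at -2.63, and the siBRCA2 column is mostly above 0.

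**Figure D5:**
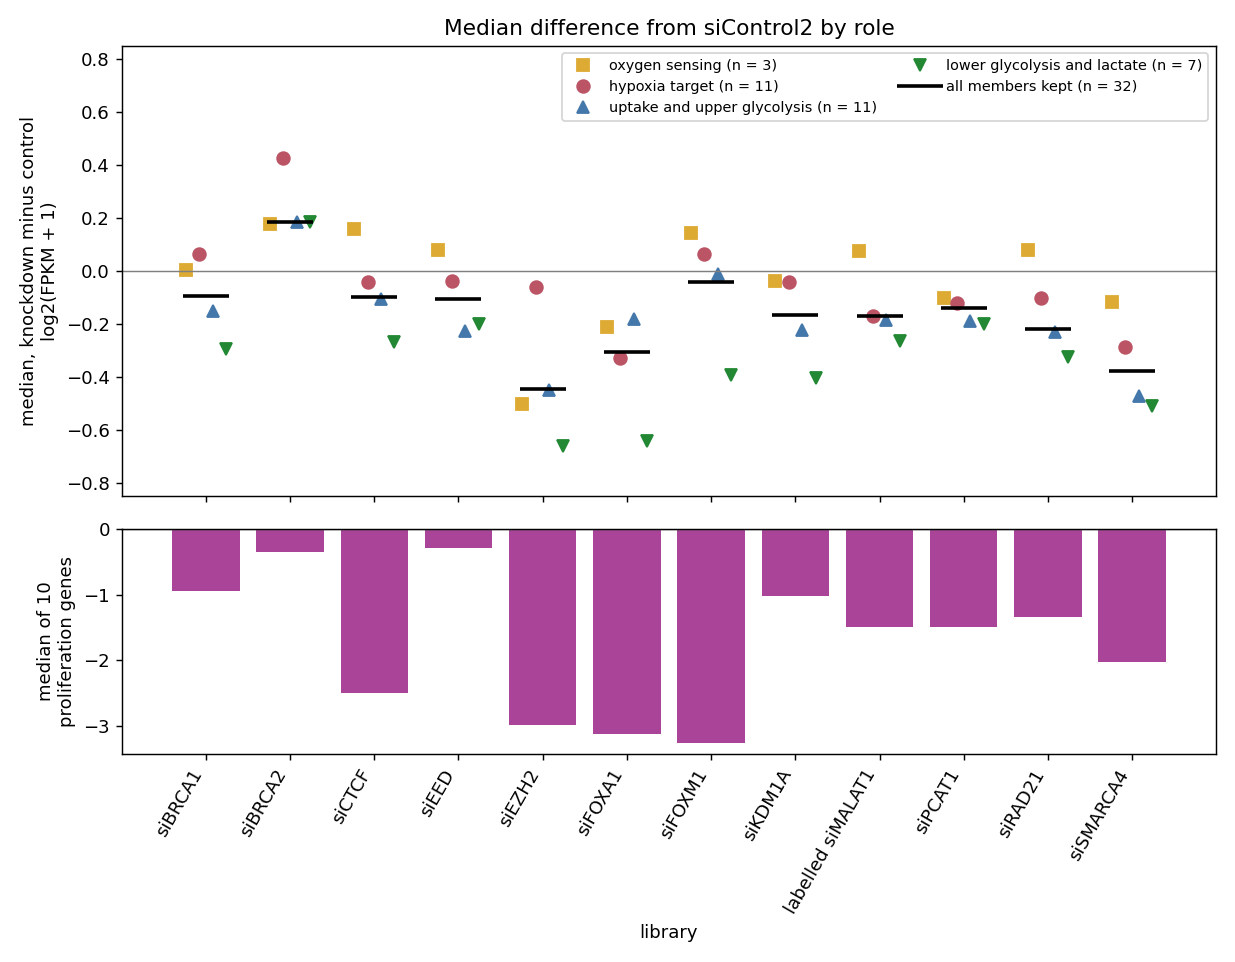
The upper panel gives the median difference (knockdown minus siControl2, log2(FPKM + 1)) of the kept members of each role as points, and of all 32 kept members as black lines, per knockdown. The lower panel gives the median difference of the 10 proliferation genes as bars. Lower glycolysis is lowest in siEZH2 (-0.66) and siFOXA1 (-0.64) and above 0 only in siBRCA2 (0.18).

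All of these differences rest on the 1 control library. With the median of the other 11 knockdowns in its place, 18 member differences were at least 1.5-fold lower and 18 higher. At 2-fold, 2 were lower and 5 higher. That reference lies near the middle of the knockdowns for each gene, so lower and higher values tend to balance. The counts therefore cannot show whether the excess of lower members rests on the control, and no share of all genes is given for them. Against that reference 2 of the 13 differences at least 2-fold lower stayed past 2-fold, LDHA in siEZH2 at -2.12 and HIF1A in siFOXA1 at -1.07. In a bulk library, fewer cells of a type and less RNA per cell cannot be told apart.

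Other genes of these pathways were taken from 5 lists. Of 16 genes for oxygen sensing, 15 were kept and none was 2-fold from the control in any knockdown. VHL was at 19.9 to 36.3 FPKM in the knockdowns, against 22.8 in siControl2, and ARNT at 10.2 to 21.3, against 13.6. Of 30 other hypoxia-induced genes, 23 were kept, and of their 276 differences 7 were at least 2-fold lower and 4 higher, few enough to lie near the 2.04% and 1.10% of all kept gene differences. Across the knockdowns, their median difference was lowest in siRAD21 (-0.13). It was 0.098 in siEZH2, 0.16 in siFOXA1, -0.085 in siSMARCA4 and 0.22 in siBRCA2. The members' medians there were -0.45, -0.31, -0.38 and 0.19, in that order. Of these other hypoxia-induced genes, the 6 with the largest differences are given as values. IGFBP3, which binds insulin-like growth factors, was at 9.87 FPKM in siRAD21, against 54.5 in siControl2 (-2.35). BHLHE40, a circadian repressor, was at 7.996 FPKM in siFOXA1, against 21.5 in siControl2 (-1.32). P4HA2, a partner of P4HA1 in function, was at 14.2 FPKM in siFOXM1, against 5.15 in siControl2 (1.31).

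HMOX1, heme oxygenase, was at 10.4 FPKM in siFOXA1, against 3.72 in siControl2 (1.27). TFRC, the transferrin receptor, was at 41.9 FPKM in siCTCF, against 98.9 in siControl2 (-1.22), and PLOD1, a collagen lysyl hydroxylase, at 18.5 FPKM in siKDM1A, against 42.9 in siControl2 (-1.17). Of 22 other glycolysis and lactate genes, 13 were kept, with 1 difference at least 2-fold lower and 1 higher of 156. The higher was LDHD, a mitochondrial dehydrogenase of D-lactate, at 104.5 FPKM in siFOXA1, against 32.7 in siControl2 (1.64). The lower was ENO2, the neuronal enolase, at 23.2 FPKM in siKDM1A, against 54.6 in siControl2 (-1.20). The median difference of these 13 genes ran from -0.21 (siFOXA1) to 0.14 (siKDM1A), with 0.036 in siEZH2 and -0.038 in siSMARCA4. None of the 25 kept genes of pyruvate dehydrogenase and the citrate cycle and none of the 10 kept genes of the pentose phosphate pathway and gluconeogenesis was 2-fold from the control in any knockdown.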

How the data were processed

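RNA was sequenced in 13 libraries of LNCaP-abl cells, 1 per siRNA, from the TruSeq RNA kit on a HiSeq2000 instrument, per the labels' protocols. Reads were aligned with TopHat and expression estimated with Cufflinks on hg19, per the submitters' processing notes, which give no versions. The authors deposited log2 values of FPKM, with a lowest value of log2 of 0.1, read here as log2(FPKM + 0.1); no label states this offset. The deposited log2 values already had a common distribution, with a largest spread of 0.0562 between sorted values. That step, which no label records, sets abundant genes by rank. No counts were used, so depth is unknown and no counting interval is given.

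Values were turned to FPKM and to log2(FPKM + 1), which understates differences of low genes. Genes with a mean of at least 0.5 FPKM were kept, and 750 small RNA entries were left out. Each knockdown was compared with siControl2 without a test, with Python 3.11.15, numpy 2.4.6 and pandas 2.3.3, in code tested on simulated data. The members and lists were chosen with earlier results of these data known. Values in every library are given for HIF1A, EGLN1, EGLN3, members at least 2-fold from siControl2 and members set apart in 1 library. From the 5 lists of other pathway genes, up to 6 genes per list at least 2-fold from siControl2, with a mean of at least 1 FPKM, are named. PFKM, VHL and ARNT were named after their values were seen. GENCODE names were used for pseudogenes, and promoters are from RefSeq. Alternative settings were no filter on low values, a pseudocount of 0.1, quantile normalization, centring, the median of the other 11 knockdowns as the reference, and, added after seeing the data, leaving out the library labelled siMALAT1.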

Additional observations from a re-analysis of the deposited data

How the results depend on the processing

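No paired analysis was possible because each group had 1 library. Quantile normalization, centring on the median over all genes, and leaving out the library labelled siMALAT1 moved none of the results they were run on past the margins set. Quantile normalization could change little, since the deposited values already had a common distribution. Centring shifted a knockdown by at most 0.054, below the margin of 0.1 for a median, so no median could move. These 2 settings are therefore no check of the medians. Leaving out the library labelled siMALAT1 was run on 4 counts only. That library held 2 of the 49 differences at least 1.5-fold lower and 0 of the other counts. With a margin of a factor of 1.5, no count could move, so this setting is no check either. With the median of the other 11 knockdowns as the reference, the members' median changed sign in 6 knockdowns. It was 0.067 in siEED (-0.11 against siControl2), 0.064 in the library labelled siMALAT1 (-0.17), 0.055 in siPCAT1 (-0.14), 0.030 in siBRCA1 (-0.094), 0.13 in siCTCF (-0.098) and 0.13 in siFOXM1 (-0.041). It was 0.47 in siBRCA2 (0.19), -0.21 in siEZH2 (-0.45), -0.050 in siRAD21 (-0.22) and -0.21 in siSMARCA4 (-0.38). It also stayed below 0 in siFOXA1, at -0.24 (-0.31), and in siKDM1A, at -0.088 (-0.17). Under that reference 2 member differences were at least 2-fold lower (13 against siControl2) and 5 at least 2-fold higher (0). At 1.5-fold, 18 were lower (49) and 18 higher (15). Lower and higher values tend to balance there, since each gene is set against the middle of the knockdowns. The counts therefore cannot show whether the excess of lower members rests on siControl2, and no share of all genes is given for them. Of the 13 single differences, 11 were short of 2-fold. With a pseudocount of 0.1, 21 member differences were at least 2-fold lower and 2 higher (HK2 in siCTCF and PFKFB3 in siBRCA2). P4HA1 in siFOXA1 became the 1 member set apart above all other libraries. With no filter, CA9 in siBRCA2 became the 1 member set apart above. The cause was not tested, except that the smaller pseudocount widens differences of low genes and dropping the filter admits CA9. With 1 library per group, no difference has a replicate check.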
